A study of Mus musculus with 6 samples.

Results

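The SLC25 family and its partners carry metabolites across the mitochondrial membranes, and 53 of the 22320 genes compared between Arid4bSCKO and control testes belong to it. Members were the rows with a symbol made of Slc25a and a number, together with the uncoupling proteins Ucp1, Ucp2 and Ucp3, the pyruvate carrier subunits Mpc1 and Mpc2, and the outer membrane proteins Mtch1 and Mtch2. Slc25a52 and Slc25a54 were not analysed here, and a row named UCP4 beside Slc25a27 lies outside the rule. The family was selected on the measured group levels of this same comparison, so its values are given as descriptions.

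Whole testes of mice aged 1.5 days after birth gave the RNA. Each of the 2 groups had 3 pools, and a pool held 4 testes. The Arid4bSCKO mice had 1 null and 1 floxed Arid4b allele and the Amh-cre transgene (Arid4b-/Flox; Amh-cre). The control mice had 1 wild-type and 1 floxed allele with the same Amh-cre (Arid4b+/Flox; Amh-cre), on the same mixed C57BL6/J and 129/SvEv background. Cre driven by the Amh promoter acts in Sertoli cells, the somatic cells that line the testis cords, while the null allele is present in every cell of the mutant. All other cells of the testis, germ cells, Leydig cells, macrophages, vessels and blood among them, were in the RNA. Controls also carry Cre and the floxed allele, so what these share cannot be seen in the comparison.

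Most SLC25 proteins sit in the inner mitochondrial membrane and swap one solute for another by moving a central binding site from one face of the membrane to the other. They let ADP and phosphate in and ATP out, and move citrate, amino acids, cofactors and nucleotides between the cytosol and the matrix. Uncoupling protein 1 instead lets protons back into the matrix as heat is made in brown fat. The pyruvate carrier is built of MPC1 and MPC2, which are not SLC25 proteins, and MTCH2 inserts proteins into the outer membrane. Immature Sertoli cells take up glucose and pass lactate to germ cells, and germ cells have an ADP/ATP carrier of their own, Slc25a31.

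The authors' table gives each gene's mean over a group of log2(normalized count + 1), called its level here, and no value per library. A difference is the Arid4bSCKO level less the control level, and its 95% interval was worked back from the authors' p-value; both are in log2 units throughout. For 44 of the 53 members the 6 library values could also be worked back, since they are whole reads multiplied by the worth of 1 read in a library. The 9 others, Mpc2, Slc25a3, Slc25a4, Slc25a5, Slc25a27, Slc25a36, Slc25a37, Mtch1 and Ucp2, are given by group. Within a group the libraries are numbered 1 to 3 by the worth of a read, from 1.28 to 1.45 normalized counts in Arid4bSCKO and from 1.20 to 1.25 in control, and the numbers do not name the deposited pools. Estimated depth was 16.3 to 18.3 M reads (M, mega) in Arid4bSCKO libraries and 18.3 to 19.1 M in control libraries. Arid4bSCKO libraries lay further from each other than control libraries did. Over 12318 genes, the median gap of a library to the mean of the others of its own group was 0.143 to 0.169 log2 in Arid4bSCKO. It was 0.0934 to 0.106 log2 in control.

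Arid4b itself, on chromosome 13, had 417, 356 and 462 normalized counts in the Arid4bSCKO libraries, against 1184, 1154 and 1170 in the control libraries. That is 35.0% of the control level in whole testis, a difference of -1.51 (95% interval -1.82 to -1.21), with an adjusted p of 2.23e-05 in the moderated limma test described next. In whole testes fewer cells of a type and less RNA per cell cannot be told apart, here and in every result that follows.

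The family as a whole did not move one way. Of the 53 members, 29 had a positive and 24 a negative difference, with a median of 0.03 log2, beside a median of -0.035 over all 19095 genes at a level of 1 or more. In the authors' deposited table, 1 member, Slc25a42, had an FDR below 0.05, where 0.26% of all genes did, and 16 members had an unadjusted p below 0.05, 8 in each direction, where 20.9% of all genes did. A moderated test (limma, which steadies each gene's spread with that of all genes) called 9 members at an adjusted p below 0.05, where it called 13.8% of all genes tested. Of these 9, 4 were higher in Arid4bSCKO (Slc25a33, Mpc1, Mpc2 and Slc25a1; 7.37% of all genes) and 5 lower (Slc25a42, Slc25a45, Slc25a18, Slc25a48 and Slc25a30; 6.46% of all genes). Without the trend of spread on level and robust fitting, 1 call was left, that of Slc25a42, with an adjusted p of 0.0154. Among the 43 members with library values at a level of 1 or more, the groups did not overlap in 34.9%, and this share was 34.6% over all genes. Arid4bSCKO libraries were all above in 6 of these members (16.2% of all genes) and all below in 9 (18.4% of all genes). In 46 members the difference was below 1.5-fold, and in 33 the whole 95% interval lay within 1.5-fold either way.

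**Figure D1:**
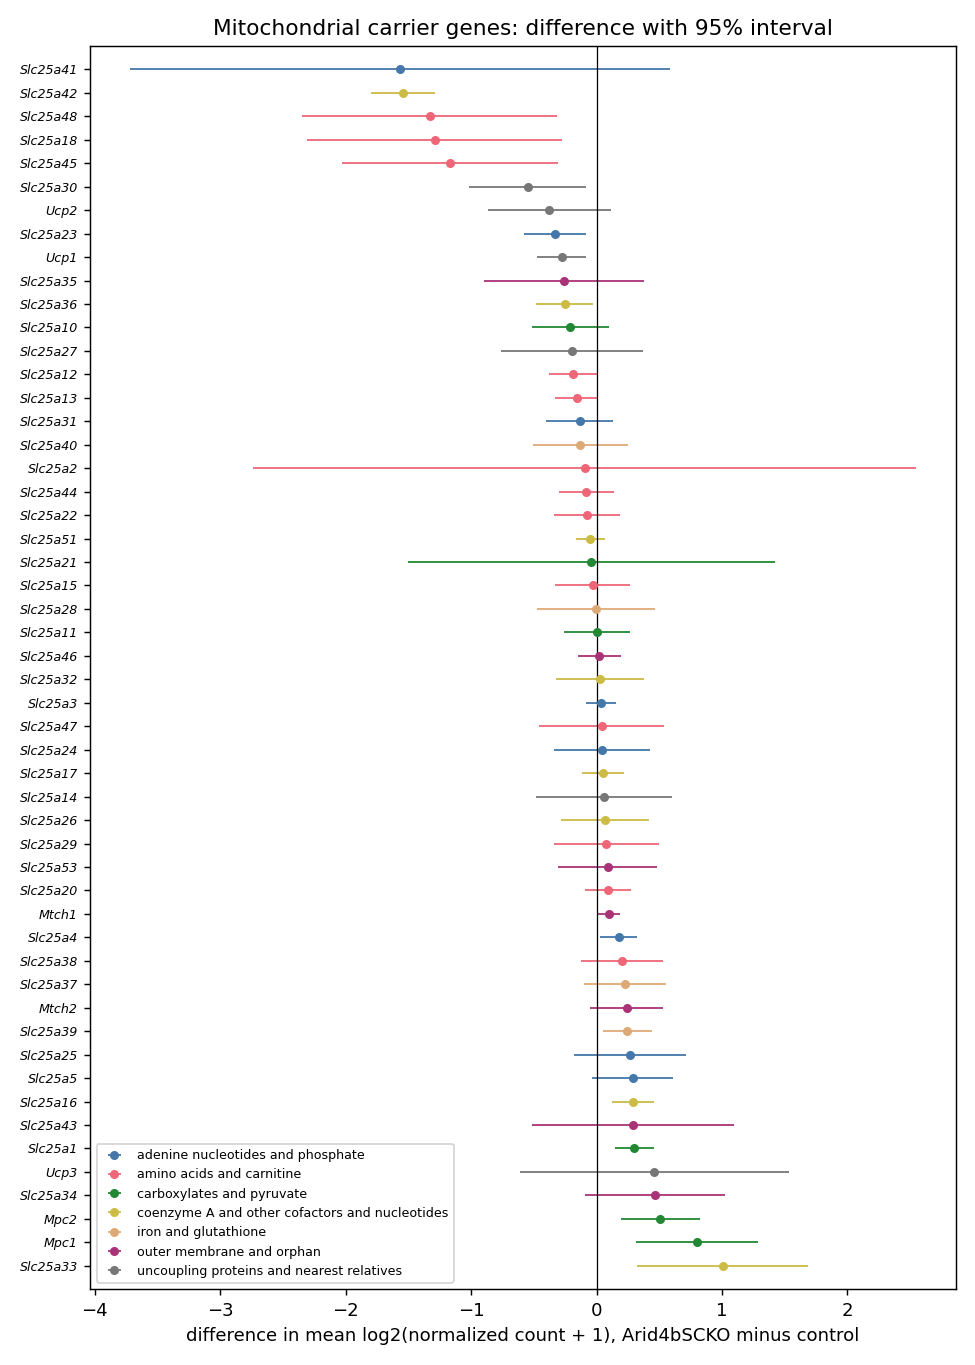
Difference in level, Arid4bSCKO minus control, for 52 of the 53 members (points) with 95% intervals (bars), ordered from the lowest at the top and coloured by substrate class. Slc25a42 stands at -1.54 with a narrow interval, most members lie close to 0, and Slc25a33 at 1.00 and Mpc1 at 0.80 lie at the bottom; the wide intervals of Slc25a41 and Slc25a2 belong to genes with few reads.

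The start regions of 4 called members, 2 lower and 2 higher in Arid4bSCKO, are printed here, since they show how unlike these promoters are in base composition. Each runs 5′ to 3′ on the gene's strand from 250 bases before to 50 bases after the RefSeq start in GRCm38.p6, with matches to the searched motifs in capitals.
Slc25a42, chr8:70212232-70212531, minus strand: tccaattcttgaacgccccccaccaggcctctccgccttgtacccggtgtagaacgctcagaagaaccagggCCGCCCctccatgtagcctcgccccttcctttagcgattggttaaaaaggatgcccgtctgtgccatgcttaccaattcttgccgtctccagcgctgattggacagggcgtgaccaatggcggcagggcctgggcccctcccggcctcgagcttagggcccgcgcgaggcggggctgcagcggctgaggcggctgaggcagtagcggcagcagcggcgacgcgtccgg
Slc25a45, chr19:5877572-5877871, plus strand: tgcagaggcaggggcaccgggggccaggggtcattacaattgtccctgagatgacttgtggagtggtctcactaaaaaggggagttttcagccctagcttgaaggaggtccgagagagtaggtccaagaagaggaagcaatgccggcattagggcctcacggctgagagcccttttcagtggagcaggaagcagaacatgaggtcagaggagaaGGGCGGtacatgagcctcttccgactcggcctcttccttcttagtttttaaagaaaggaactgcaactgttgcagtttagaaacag
Slc25a33, chr4:149774218-149774517, minus strand: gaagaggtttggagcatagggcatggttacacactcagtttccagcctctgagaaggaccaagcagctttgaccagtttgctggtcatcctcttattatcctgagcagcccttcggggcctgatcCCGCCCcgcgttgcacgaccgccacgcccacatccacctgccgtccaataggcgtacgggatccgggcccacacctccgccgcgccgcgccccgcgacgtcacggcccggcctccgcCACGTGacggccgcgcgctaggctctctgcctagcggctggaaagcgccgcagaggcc
Mpc1, chr17:8283537-8283836, plus strand: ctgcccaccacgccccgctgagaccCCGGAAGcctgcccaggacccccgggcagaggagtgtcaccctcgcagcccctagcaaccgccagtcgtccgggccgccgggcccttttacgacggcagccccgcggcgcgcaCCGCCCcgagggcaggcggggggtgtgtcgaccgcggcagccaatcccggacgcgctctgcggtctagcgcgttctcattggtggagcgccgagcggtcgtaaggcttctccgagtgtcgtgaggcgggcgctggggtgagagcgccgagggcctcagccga
The promoter of Slc25a45 holds 7 CpG pairs, against 26 in that of Slc25a42, 30 in that of Slc25a33 and 39 in that of Mpc1. The capitals in Slc25a42 and Slc25a45 mark GGGCGG or its reverse complement, the GC box letters of SP1. Slc25a33 holds this match and CACGTG, the E-box letters, which start 8 bases before the start site. Mpc1 holds CCGGAAG, the letters of GABPA and its ETS relatives, and a GC box. Over the 42 members with a RefSeq promoter in the table, 54 promoters in all, the median was 17 CpG pairs, against 7 over 32851 promoters.

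On both strands, GGGCGG was found in 35 of the 42 members and in 35.7% of all promoters, and CCGGAAG in 8 members and in 8.86% of all promoters. CACGTG was found in 7 members, Slc25a33 and Slc25a1 among them, and in 7.15% of all promoters. TGACGTCA, the CREB letters, was found in 2 members and in 1.79% of all promoters, and CAAGGTCA, the letters of SF1 and the estrogen-related receptors, in Mtch2 alone and in 1.56% of all promoters. A member counts where any of its promoters holds a match, so its chance of a match is higher than that of a single promoter. No searched motif contains another. A match is a description of letters, not a bound site.

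The carriers of coenzyme A, other cofactors and nucleotides held the largest fall and the largest rise among members at a level of 3 or more. Slc25a42, which exchanges coenzyme A for adenine nucleotides at the inner membrane, lies on the minus strand of chromosome 8 (mm10, chr8:70184339-70212281). It had 188, 158 and 183 normalized counts in the Arid4bSCKO libraries, against 480, 537 and 528 in the control libraries. All 3 Arid4bSCKO libraries were low by a like amount, the highest of them under the lowest control library, and the level fell to 7.47 in Arid4bSCKO, against 9.01 in control. The difference of -1.54 (95% interval -1.80 to -1.28) leaves 34.2% of the control level, and the moderated adjusted p was 6.3e-05. The FDR that the authors' deposited table lists for it is 0.0377. With each library left out in turn, the difference ran from -1.59 to -1.47 and the call held.

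Slc25a33, which carries pyrimidine nucleotides into mitochondria, lies on the minus strand of chromosome 4 (chr4:149744035-149774267). It had 539, 572 and 863 normalized counts in Arid4bSCKO and 274, 326 and 367 in control. The groups did not overlap, and Arid4bSCKO library 3 stood above the other two. The difference was 1.00 (95% interval 0.32 to 1.69; adjusted p = 0.00484, limma), and it ran from 0.79 to 1.13 with each library left out. The antisense gene Gm13068 covers 14.9% of its exonic bases, and whether counting used strand is not given in the sources used here. Slc25a36, the other pyrimidine nucleotide carrier, had a level of 10.49 in Arid4bSCKO and 10.74 in control, a difference of -0.25 (95% interval -0.48 to -0.03; adjusted p = 0.0842). Its difference was -0.13 after correction for a trend with transcript length.

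Slc25a16, a carrier linked to coenzyme A in yeast studies, had 571, 626 and 657 normalized counts in Arid4bSCKO and 514, 501 and 500 in control. Its groups did not overlap, yet the difference of 0.29 (95% interval 0.12 to 0.46) had an adjusted p of 0.0778, and 0.0409 with the length trend removed. With each library left out the adjusted p ran from 0.0408 to 0.211. Slc25a17, which serves coenzyme A in the peroxisome, differed by 0.05 and Slc25a26 (S-adenosylmethionine) by 0.07. Slc25a32, for folate and flavin, differed by 0.03 and Slc25a51, for NAD, by -0.05. The libraries of the groups overlapped in all 4 of these, and the moderated test called none of them.

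**Figure D2:**
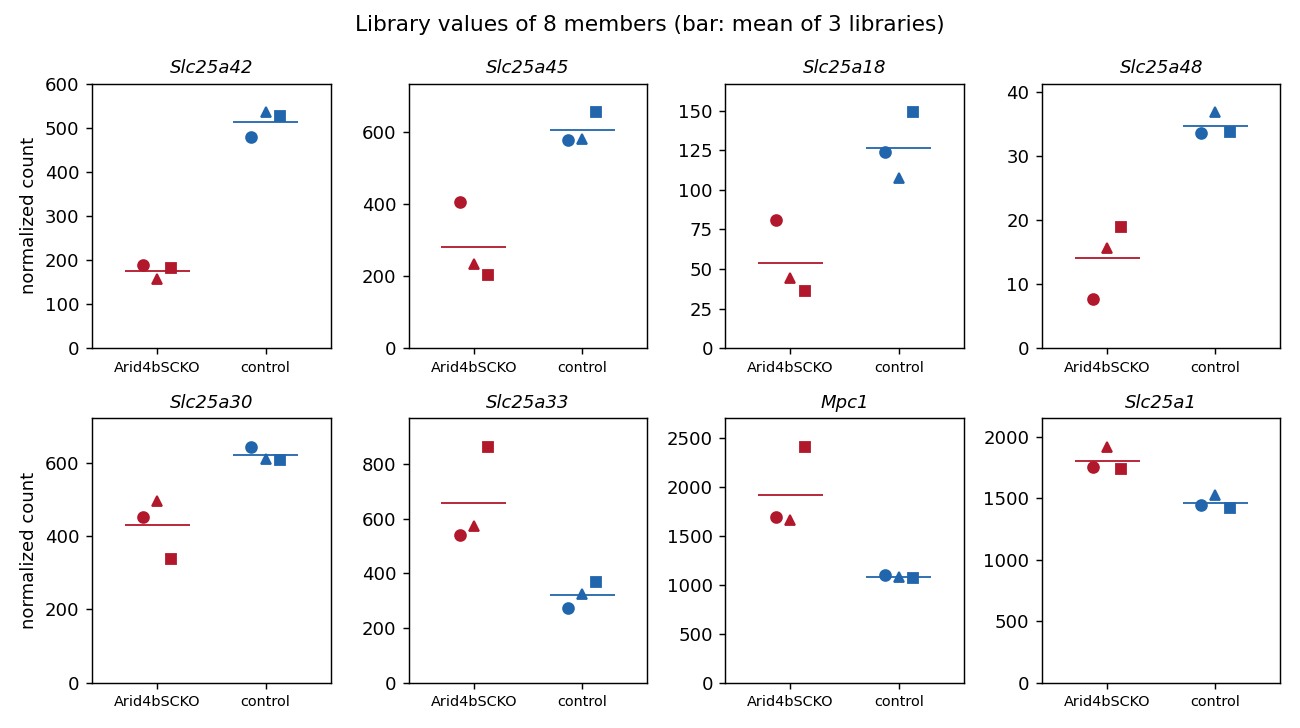
Worked-back normalized counts in each library (circle, triangle and square for libraries 1, 2 and 3 of a group) for 8 members called by the moderated test, Arid4bSCKO in red on the left and control in blue on the right, with bars at the group means. In each of the 8 genes the groups do not overlap, but these genes were picked by a test of the same libraries. Over all genes with library values at a level of 1 or more, the groups do not overlap in 34.6%. Slc25a42 is tight in both groups, while Slc25a45, Slc25a18, Slc25a33 and Mpc1 spread in Arid4bSCKO.

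Among carriers of carboxylates and pyruvate, 3 of 6 were called, all higher in Arid4bSCKO, where 7.37% of all genes tested were called higher. Mpc1, on chromosome 17 (chr17:8283812-8297661, plus strand), encodes a subunit of the carrier that brings pyruvate into the matrix. It had 1689, 1660 and 2410 normalized counts in Arid4bSCKO, against 1096, 1081 and 1075 in control. Control libraries were nearly equal and Arid4bSCKO library 3 was highest. The difference was 0.80 (95% interval 0.31 to 1.29; adjusted p = 0.00295), from 0.63 to 0.90 with each library left out. The non-coding gene 4930506C21Rik overlaps 23.1% of its exonic bases on the other strand, and the pseudogene Mpc1-ps may share reads with it, so its size is uncertain.

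Mpc2, the partner subunit, on chromosome 1 (chr1:165461207-165481214), had a level of 10.28 in Arid4bSCKO and 9.77 in control. The difference was 0.51 (95% interval 0.20 to 0.82; adjusted p = 0.00925), so the pair of subunits was called in the same direction. Slc25a1, the citrate carrier, had 1755, 1919 and 1737 normalized counts in Arid4bSCKO and 1445, 1531 and 1419 in control. Its difference was 0.30 (95% interval 0.14 to 0.46; adjusted p = 0.0328), and the adjusted p was 0.0611 with the length trend removed and 0.0709 to 0.122 with any 1 control library left out. The other 3 were not called: Slc25a10 (dicarboxylates) differed by -0.21, Slc25a11 (oxoglutarate and malate) by 0.00 and Slc25a21 (oxodicarboxylates, few reads) by -0.04.

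Of 13 members placed in the class of amino acids and carnitine, 3 were called and all were lower in Arid4bSCKO, where 6.46% of all genes tested were called lower. Among these 3, a substrate of the class is named here for Slc25a18 alone. Slc25a45, on chromosome 19 (chr19:5877825-5885768), had 406, 233 and 203 normalized counts in Arid4bSCKO, against 579, 580 and 655 in control. Slc25a18, a glutamate carrier on chromosome 6 (chr6:120773767-120793982), had 80.7, 44.3 and 36.3 normalized counts in Arid4bSCKO, against 124, 107 and 149 in control. In both genes Arid4bSCKO library 1 came nearest to control and library 3 lay furthest away. The differences were -1.17 (95% interval -2.03 to -0.31; adjusted p = 0.00915) for Slc25a45 and -1.29 (95% interval -2.31 to -0.27; adjusted p = 0.0133) for Slc25a18, and both calls held with each library left out.

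Slc25a48, reported as a choline carrier, had 6, 12 and 13 reads in the Arid4bSCKO libraries, against 28, 30 and 27 reads in the control libraries. The groups did not overlap, and here Arid4bSCKO library 1 was the lowest. Its difference of -1.33 (95% interval -2.35 to -0.31; adjusted p = 0.0328) lost the call without Arid4bSCKO library 1 (-0.98, adjusted p = 0.0519) and without any 1 control library (adjusted p of 0.0728 to 0.0973). The other glutamate carrier, Slc25a22, differed by -0.08, and the aspartate-glutamate carriers Slc25a12 and Slc25a13 by -0.19 and -0.16. Slc25a15 (ornithine) differed by -0.03, Slc25a20 (carnitine and acylcarnitine) by 0.09, Slc25a29 (basic amino acids) by 0.08, Slc25a38 (glycine) by 0.20 and Slc25a44 (branched-chain amino acids) by -0.08. Slc25a47 differed by 0.04. Slc25a2, the second ornithine carrier, had 0, 1 and 5 reads in Arid4bSCKO and 3, 1 and 1 in control.

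None of 8 carriers of adenine nucleotides and phosphate was called, where 13.8% of all genes tested were called. They include 2 of the 3 members with the highest mean level, Slc25a5 and Slc25a3; the other is Ucp2, which had the highest level in control. Slc25a5, the ADP/ATP carrier of dividing cells, had a level of 13.18 in Arid4bSCKO and 12.89 in control, a difference of 0.29 (95% interval -0.04 to 0.61; adjusted p = 0.0813). Its named pseudogene, Slc25a5-ps, may share reads with it. Slc25a3, the phosphate carrier, had a level of 13.06 in Arid4bSCKO and 13.02 in control, a difference of 0.04 (95% interval -0.08 to 0.16) that lies within 1.5-fold either way. Slc25a4, the ADP/ATP carrier of heart and muscle, differed by 0.18 (95% interval 0.03 to 0.32; adjusted p = 0.167). Slc25a31, the germ cell ADP/ATP carrier, had 826, 791 and 767 normalized counts in Arid4bSCKO and 982, 857 and 789 in control, and the groups overlapped.

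Slc25a23, an ATP-magnesium/phosphate carrier, had 574, 679 and 599 normalized counts in Arid4bSCKO and 748, 833 and 747 in control. The groups did not overlap, and the difference of -0.33 (95% interval -0.58 to -0.08) had an adjusted p of 0.0526. Slc25a23 was called over genes at a level of 3 or more, and by limma on the library values. Its adjusted p was 0.116 with the length trend removed. With each library left out it ran from 0.0194 to 0.184, below 0.05 only without Arid4bSCKO library 2. Its relatives Slc25a24 and Slc25a25 differed by 0.05 and 0.27, with overlapping libraries. Slc25a41, which lies 2055 bases from Slc25a23 on chromosome 17, had 0, 2 and 2 reads in Arid4bSCKO and 10, 3 and 4 reads in control, too few for its difference of -1.57 (95% interval -3.72 to 0.59) to be told from 0.

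**Figure D3:**
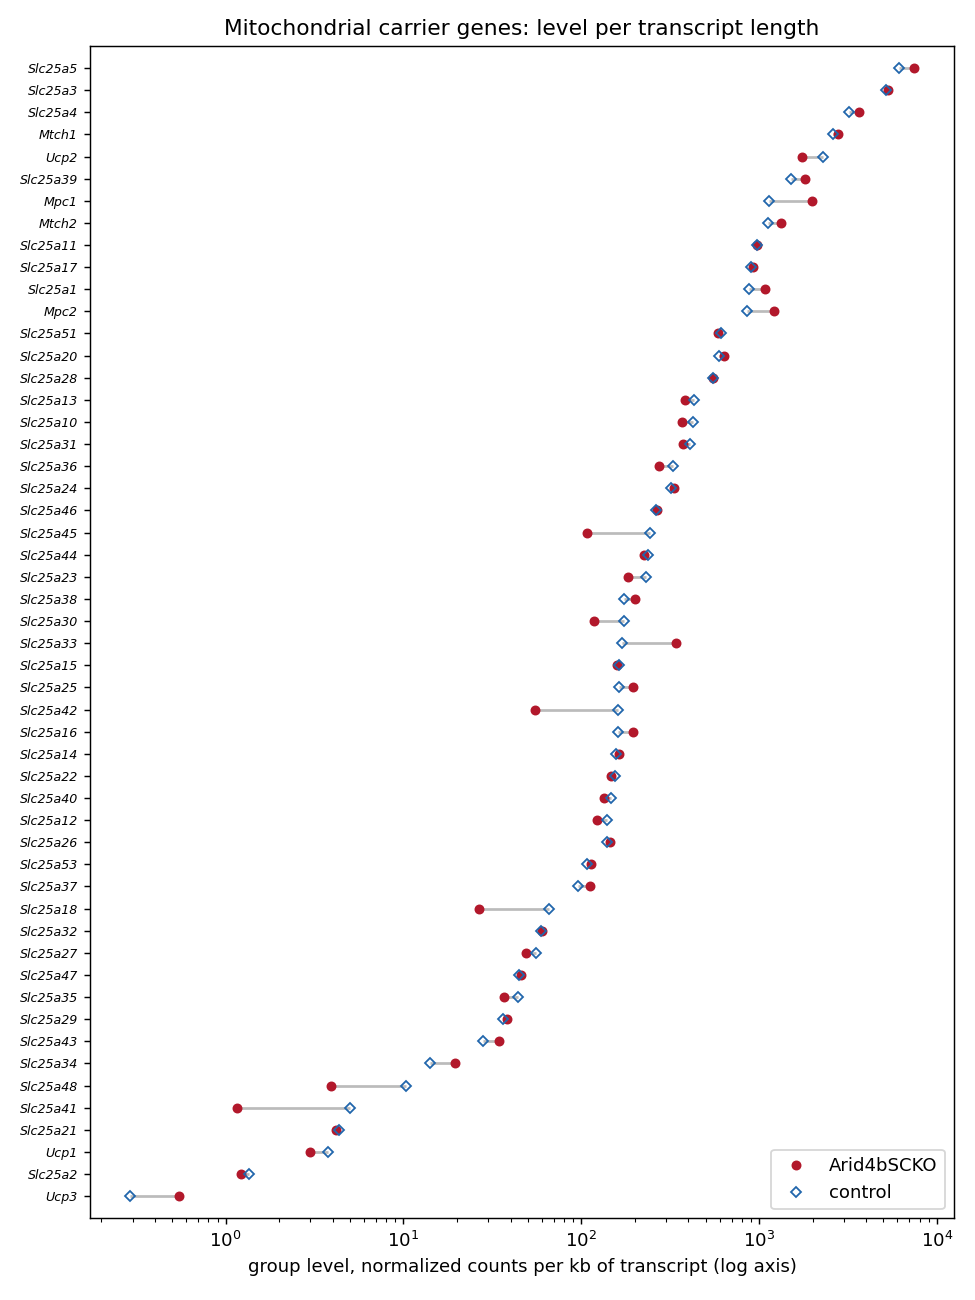
Group level of 52 of the 53 members as normalized counts per kb of transcript on a log axis, Arid4bSCKO as red points and control as open blue diamonds, ordered by the control value. Slc25a5 and Slc25a3 lead in both groups, Ucp3 is lowest in both, and wide gaps are seen for Slc25a41, Slc25a42, Slc25a48, Slc25a18, Slc25a45, Slc25a33, Ucp3 and Mpc1; Slc25a41 and Ucp3 have few reads.

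Per kb of transcript, Slc25a5 had 7463 normalized counts in Arid4bSCKO and 6114 in control, first in both groups, and Slc25a3 had 5298 in Arid4bSCKO and 5158 in control, second in both. Slc25a4 had 3632 in Arid4bSCKO and 3215 in control. At the other end Ucp3 had 0.549 in Arid4bSCKO and 0.288 in control. Slc25a42 ranked 40 of 53 in Arid4bSCKO and 31 in control, Slc25a45 ranked 38 in Arid4bSCKO and 22 in control, and Slc25a33 ranked 19 in Arid4bSCKO and 28 in control. Mpc1 had 1973 normalized counts per kb in Arid4bSCKO, against 1132 in control, and Mpc2 had 1209 in Arid4bSCKO, against 850 in control.

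Of the 6 uncoupling proteins and nearest relatives, 5 were tested and 1 was called, where 13.8% of all genes tested were called. Slc25a30, first described in kidney, had 452, 497 and 339 normalized counts in Arid4bSCKO and 644, 611 and 608 in control. The difference was -0.55 (95% interval -1.02 to -0.08; adjusted p = 0.0227). It was -0.39 with an adjusted p of 0.0505 without Arid4bSCKO library 3, the lowest, and the call was also lost without any 1 control library (adjusted p of 0.0575 to 0.0859). Ucp2 had a level of 12.77 in Arid4bSCKO and 13.15 in control, a difference of -0.38 (95% interval -0.86 to 0.11; adjusted p = 0.0757). Ucp1, the brown fat protein, had 4, 4 and 3 reads in Arid4bSCKO and 5, 5 and 5 in control. Its difference of -0.28 (95% interval -0.47 to -0.09) has a p of 0.016 in the authors' deposited table and an adjusted p of 0.737 in the moderated test. Ucp3 had 1, 1 and 1 reads in Arid4bSCKO and 1, 0 and 1 in control. Slc25a14 differed by 0.06 and Slc25a27 by -0.20.

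No carrier of iron or glutathione, of 4, was called, where 13.8% of all genes tested were called. Slc25a39, a glutathione carrier, had 2845, 3325 and 2961 normalized counts in Arid4bSCKO and 2584, 2607 and 2490 in control, without overlap, and a difference of 0.25 (95% interval 0.05 to 0.44; adjusted p = 0.0731). Its paralog Slc25a40 differed by -0.13. Mitoferrin 1, Slc25a37, which brings iron to mitochondria of red cell precursors, differed by 0.23 and mitoferrin 2, Slc25a28, by 0.00. Among 7 outer membrane and orphan members none was called either. Mtch1 differed by 0.10 (95% interval 0.01 to 0.19; adjusted p = 0.432) and Mtch2 by 0.24 (95% interval -0.05 to 0.53). Slc25a46, which acts in mitochondrial shape, differed by 0.02, Slc25a34 by 0.47, Slc25a35 by -0.26, Slc25a43 by 0.29 and Slc25a53 by 0.09. The gene Rangrf overlaps 31.3% of the exonic bases of Slc25a35.

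Sertoli markers were mostly lower and macrophage markers higher in Arid4bSCKO, while markers of the other cell types were mostly not called. The 10 Sertoli markers summed to 71570 normalized counts in Arid4bSCKO and 118300 in control, with 9 of 10 negative, 6 called lower and a median of -0.71. The 5 of them with library values summed to 88.8%, 65.8% and 57.2% of the control mean in the Arid4bSCKO libraries, against 99.8%, 100% and 100% in the control libraries. All 9 macrophage markers measured were called higher, with a median of 0.91, and summed to 144%, 202% and 186% of the control mean in Arid4bSCKO, against 99.3%, 90.9% and 110% in control. None of the 8 germ cell markers was called (median -0.26), nor any of 6 Leydig (median -0.08), 7 erythroid (median 0.12) or 4 endothelial markers (median -0.20), and 1 of 4 myoid markers was called higher. Over all genes tested, 7.37% were called higher and 6.46% lower. Without trend and robust fitting, none of the Sertoli markers and 1 of the macrophage markers was called, and with the length trend removed 4 Sertoli and 8 macrophage markers were. No marker was at 0 in a group.

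The 8 called members with library values are set beside these sums. Slc25a42 was at 36.6%, 30.6% and 35.6% of its control mean in Arid4bSCKO libraries 1, 2 and 3, where the Sertoli sum was at 88.8%, 65.8% and 57.2%. Arid4b was likewise at 35.7%, 30.4% and 39.5%. Slc25a45, at 67.1%, 38.6% and 33.6%, and Slc25a18, at 63.7%, 35.0% and 28.7%, were highest in library 1 and lowest in library 3, as the Sertoli sum was. Of the 5 markers in that sum, Dmrt1 and Dhh had this order. Wt1 and Sox9 were highest in library 2, and Cst9 was lowest in library 2. Slc25a48, at 22.1%, 45.0% and 54.3%, was lowest in library 1 and highest in library 3, and Slc25a30 was at 72.8%, 80.0% and 54.6%. Slc25a33 was at 167%, 178% and 268% and Mpc1 at 156%, 153% and 222%, both highest in library 3. The macrophage sum was highest in library 2. The germ cell sum (77.7%, 83.0% and 67.7%) and the erythroid sum (80.1%, 177% and 78.0%) were highest in library 2 and lowest in library 3, as Slc25a30 was. The endothelial sum (76.3%, 97.3% and 79.7%) was also highest in library 2, and these 3 sums overlapped control. The sum of the 2 myoid markers with library values (166%, 156% and 147%) was highest in library 1 and lowest in library 3, above control in each. The sum of the 2 fetal Leydig markers with library values, at 85.7%, 148% and 164%, was highest in library 3. Star makes up most of that sum, and 5 of the 6 Leydig markers had a negative difference. Over all 6, the Leydig markers summed to 42740 normalized counts in Arid4bSCKO and 43850 in control. Slc25a1 was at 120%, 131% and 119%. The part of these markers in the results for any member was not tested.

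**Figure D4:**
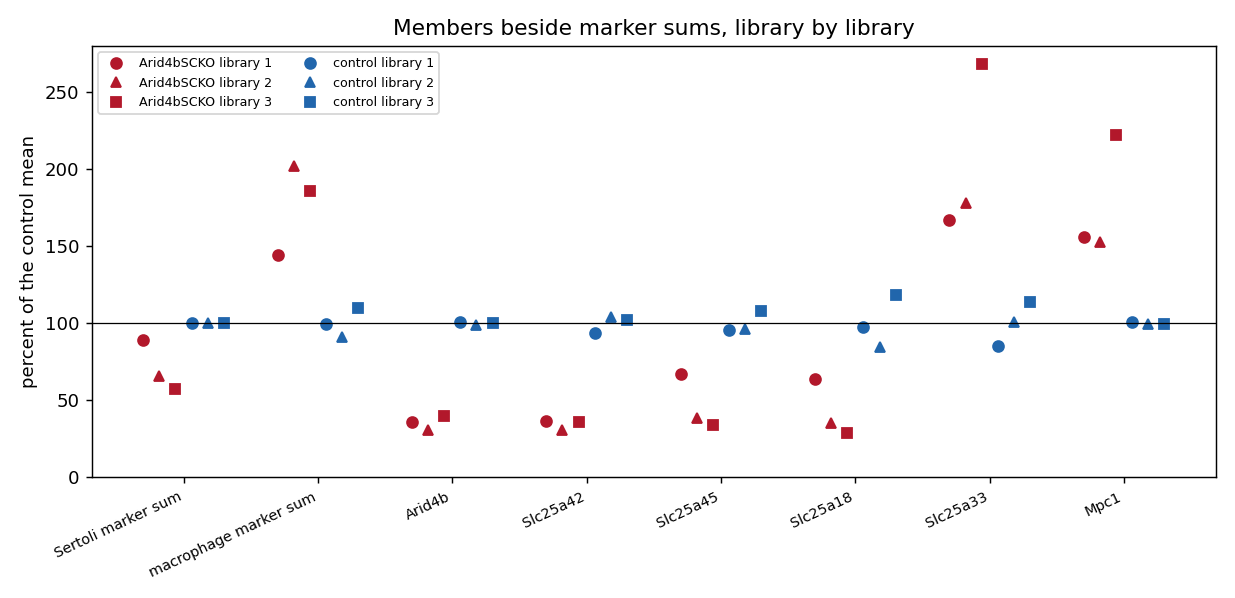
Library values as a percent of the control mean for the Sertoli and macrophage marker sums, Arid4b and 5 members; red Arid4bSCKO libraries stand left of blue control libraries, and circle, triangle and square mark libraries 1, 2 and 3. Slc25a42 is at 36.6%, 30.6% and 35.6% in the Arid4bSCKO libraries. Slc25a45 and Slc25a18 are highest in library 1 and lowest in library 3, as the Sertoli sum is, though not each marker in it.

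Genes that work with the carriers were described from 8 lists of 96 genes, of which the moderated test called 18 (13.8% of all genes). Of 12 genes of coenzyme A synthesis and breakdown, 2 were higher and 2 lower. The pantothenate kinases Pank1 and Pank3, which catalyse the rate-limiting step of coenzyme A synthesis, were the 2 lower ones. Pank2 and Pank4, in the same list, differed by -0.06 and -0.14 and were not called. Pank3 had 2748, 2815 and 2581 normalized counts in Arid4bSCKO and 4138, 3943 and 3939 in control, a difference of -0.56 (95% interval -0.68 to -0.44; adjusted p = 0.00118). Pank1 had 1255, 1103 and 1052 in Arid4bSCKO and 1720, 1793 and 1655 in control, a difference of -0.60 (95% interval -0.83 to -0.37; adjusted p = 0.00198). Nudt19, a peroxisomal enzyme that degrades coenzyme A, was higher by 0.61, and Ppcs, an enzyme of a later step of synthesis, by 0.57; these 2 are named since they complete the count.

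Of 9 genes of mitochondrial one-carbon metabolism, 4 were called and all were higher, where 7.37% of all genes tested were called higher. Aldh1l2, which oxidizes formyl-tetrahydrofolate in the matrix, had 498, 1368 and 1608 normalized counts in Arid4bSCKO, against 66.0, 88.7 and 100.3 in control. Its difference was 3.61 (95% interval 2.06 to 5.15; adjusted p = 0.00616), with library 1 the mildest of the 3. Gcsh, a subunit of the glycine cleavage system, differed by 0.70 (95% interval 0.23 to 1.16; adjusted p = 0.00482), and Mthfd2 and Shmt2 completed the 4. The folate carrier Slc25a32 and the glycine carrier Slc25a38, which feed this pathway, were not called.

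Of 15 genes that import carriers into mitochondria, 3 were called, all higher, where 7.37% of all genes tested were called higher. In this list 14 of 15 differences were positive (median 0.26), where 8749 of 19095 genes tested had a positive difference. With the length trend removed 3 were called, and the signs were not counted under that setting. Timm10b, a chaperone of the space between the membranes, differed by 0.81 (95% interval 0.53 to 1.09; adjusted p = 0.00102) and Tomm40, the outer membrane channel, by 0.40 (adjusted p = 0.0147). In the malate-aspartate and glycerol phosphate shuttles, 1 of 7 was called, where 13.8% of all genes tested were called. It was Gpd1, at -0.77 (adjusted p = 0.0469, and 0.0603 with the length trend removed), and Got1 differed by 0.40 (adjusted p = 0.0718). Of 17 genes of pyruvate dehydrogenase and the citrate cycle 1 was called, beside the same 13.8% of all genes tested. It was Idh3a, at 0.29 (adjusted p = 0.0467), and Sucla2 differed by 0.19 (adjusted p = 0.14). The other 16 genes, among them the pyruvate dehydrogenase subunits Pdha1, Pdhb and Dlat, were not called.

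Of 15 genes of heme and iron-sulfur assembly, 1 was called higher and 2 lower, where 7.37% and 6.46% of all genes tested were. The inner membrane transporter Abcb10 differed by -0.39 (adjusted p = 0.0216, and 0.0709 with the length trend removed) and Tmem14c, a heme synthesis transporter, by 0.24 (adjusted p = 0.0579). Of 12 genes of carnitine and fatty acid oxidation 2 were called lower, where 6.46% of all genes tested were called lower. Hadh was 1 of these 2, at -0.29 (adjusted p = 0.0383), while Acadm differed by 0.19 (adjusted p = 0.124). None of 9 regulators of mitochondrial biogenesis was called, with Esrra at 0.38 (adjusted p = 0.0615) and Gabpa at -0.23 (adjusted p = 0.112). Without the trend and robust fitting, 3 of the 96 genes were called, Pank3, Timm10b and Aldh1l2.

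**Figure D5:**
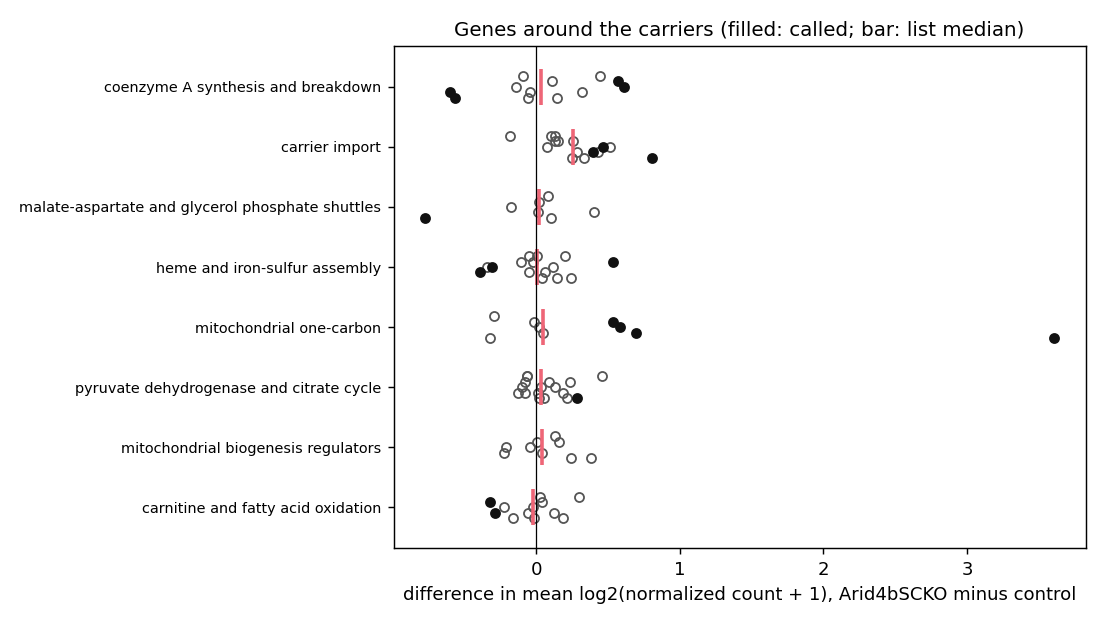
Differences in level, Arid4bSCKO minus control, for the 96 genes of the 8 lists (filled points: called by the moderated test; bar: median of the list). Aldh1l2 stands alone at 3.61, coenzyme A genes lie on both sides of 0, and carrier import genes lie mostly to the right of 0 with a median of 0.26.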

How the data were processed

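RNA was sequenced from 3 pools of 4 testes per group, per the labels' protocols, as stranded poly(A) libraries. The submitters' processing notes list STAR 2.4 and mm10; how reads were counted, with which annotation and strand setting, and how counts were normalized is not given in the sources used here. Per the file headers and column descriptions, the authors' deposited table holds group means on a log2 scale of normalized count + 1, a log2 fold change of group medians, a p-value before adjustment that assumes equal variances, and an FDR. No label ties pools to separate litters, so the p-values measure only how these pools vary, which may be technical in part.

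Differences and 95% intervals were computed from the deposited means and p-values with 4 degrees of freedom. Intervals, p-values and the moderated test all assume the same spread in both groups. In each called member with library values the spread was larger in Arid4bSCKO. For Mpc1 the log2 standard deviation was 0.303 in Arid4bSCKO and 0.0145 in control. The moderated test used limma 3.58.1 in R 4.3.3 (squeezeVar with trend and robust fitting) on the variance that the deposited means and p-values imply. Benjamini-Hochberg adjustment ran over 19095 genes at a level of 1 or more. The test was tried on simulated data with the same spread in both groups, so that trial does not cover the unequal spread seen here. A gene is called at an adjusted p below 0.05. All adjusted p-values are from this test unless the authors' table or a left-out library is named.

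Library values were worked back by searching for 6 whole-read numbers, each multiplied by the worth of 1 read in its library, that give both means, the median ratio and the p-value. A value was kept where 1 solution existed, for 18978 genes. With the worth displaced by 1%, 0 of the 53 members had exactly 1 solution. Leaving out each library used limma on these values, an input added after seeing the data. Intervals cover the spread between libraries. Lengths are from GENCODE M21 and promoters from RefSeq (GRCm38.p6).

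The members, companion lists and cell markers were chosen with earlier results of these data known. Members with an unadjusted p or adjusted p below 0.05, with a difference of at least 1.5-fold at a level of 3 or more, or among the 3 highest levels are given with intervals, and of each companion list the 2 genes of smallest p. Some items are given beyond this rule and were chosen after their values were seen. The values of 1 member are not reported here, though counts over the members include it.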

Additional observations from a re-analysis of the deposited data

How the results depend on the processing

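The count of members past the authors' FDR was 1, and was 0 when the p-values were readjusted over genes at a level of 1 or more (Slc25a42 then at 0.0584), 9 with moderated variance and 16 at an unadjusted p below 0.05; without rows read as filled-in values it was 1 (0.0368). The moderated count of 9 was 1 without trend and robust fitting, and 8 to 10 under no filter, a higher level minimum, centring, and removal of a trend over length or level. On worked-back library values limma called 9 members, with Slc25a23 among them and without Mpc2, which has no library values, and 5 to 10 with each library left out; each control library left out gave 5 (Mpc1, Slc25a18, Slc25a33, Slc25a42 and Slc25a45). In the companion lists 18 genes were called, 3 without trend and robust fitting, and 15 with the length trend removed, where Gpd1, Abcb10 and Cpt1a lost the call. The difference of Slc25a36 was -0.13 with the length trend removed. No direction of a called member reversed under these settings. The cause was not tested where a call was lost. Any library left out leaves fewer samples, and 10, 10 and 7 members were called without Arid4bSCKO libraries 1, 2 and 3. No paired analysis was possible because the worked-back library values carry no replicate number. Depth limits Ucp1, Ucp3, Slc25a2 and Slc25a41, which had 10 or fewer reads in each library.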
